A study of Mus musculus with 2 samples.

Results

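A set of 10 regulators of the mammary epithelium was followed in 2 spatial transcriptomic sections of mouse cerebellum that carried a growing breast tumor. The genes were *Elf5*, *Ehf*, *Kit*, *Foxa1*, *Esr1*, *Pgr*, *Gata3*, *Tfap2c*, *Trp63* and *Sox9*, given as a list by name, and all 10 were among the 19465 genes of the probe panel in both sections. The tumors came from HP organoids, which carry a human HER2 transgene with the activating V777L change together with PIK3CA H1047R. The HER2 transgene is driven by an actin promoter behind a Lox-STOP-Lox cassette, and the primary tumors were started by Cre adenovirus in the mammary gland. Cells from these organoids were given a luciferase reporter by lentivirus, selected as stable clones and placed by stereotactic injection into the cerebellum of 5-month-old syngeneic B6 mice, so the earlier steps of spread from the breast were bypassed. Both sections belonged to this single untreated condition, with 1 section from each of 2 biological replicates and no tumor-free control. Section 1 came from the sample titled HP-F1 +cre and section 2 from the sample titled HP-B6 +cre. Both samples carried the same cell line label, B6-HP, and what separates the titles was not given in the sources used here.

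The mammary gland is built of an inner luminal layer and an outer basal, or myoepithelial, layer. Luminal cells are divided into hormone-sensing cells, which hold the estrogen and progesterone receptors together with FOXA1 and GATA3, and secretory or alveolar progenitors, which hold KIT and ELF5. TP63 marks the basal layer, while SOX9, EHF and TFAP2C act in epithelia more widely. Several of these genes also have work outside the breast, in T cells, in glia and in inhibitory neurons of the cerebellum.

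Each section is a grid of capture spots, and a spot can hold several cells of different types. A spot was called neural-poor where its level of 18 measured neuronal and glial genes was under 0.25 of the typical neural level of that section. Connected sets of at least 50 neural-poor spots formed the tumor mass. Spots within 2 steps of the border, on either side, were called edge, the deeper mass spots tumor, and the remaining neural-rich spots neural. No member of the list entered this rule. It gave 691 tumor, 327 edge and 2277 neural spots in section 1, and 556, 691 and 2698 in section 2. Section 1 held 63986887 UMIs (unique molecules counted) over 3406 spots and section 2 held 71878333 over 4017 spots. Tumor spots were deeper than neural spots, with a median of 55158 against 7447 UMIs in section 1 and of 42229 against 9642 in section 2. The sections shared 3096 barcodes, which are positions on the array and not shared cells.

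Although both samples carried the cell line label B6-HP, epithelial genes were low in the tumor region of section 1. The summed level of 8 epithelial markers was 50.06 CPM (UMIs of a gene per 1000000 UMIs, with TMM scaling) there and 13280 CPM in the tumor region of section 2. *Epcam* stood at 6.917 against 2258 CPM, *Krt8* at 24.44 against 1942 CPM and *Krt7* at 3.136 against 4818 CPM. None of the 8 epithelial genes passed the test of tumor against neural across both sections, with adjusted p values from 0.0689 to 0.441. The mass of section 1 was rich in fibroblast genes, whose 8 markers summed to 61470 CPM against 770.3 CPM in section 2, and in 8 T cell genes, at 291.3 against 16.81 CPM. It is called the tumor region below only by the rule that defined it, and each result is given for both sections.

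**Figure D1:**
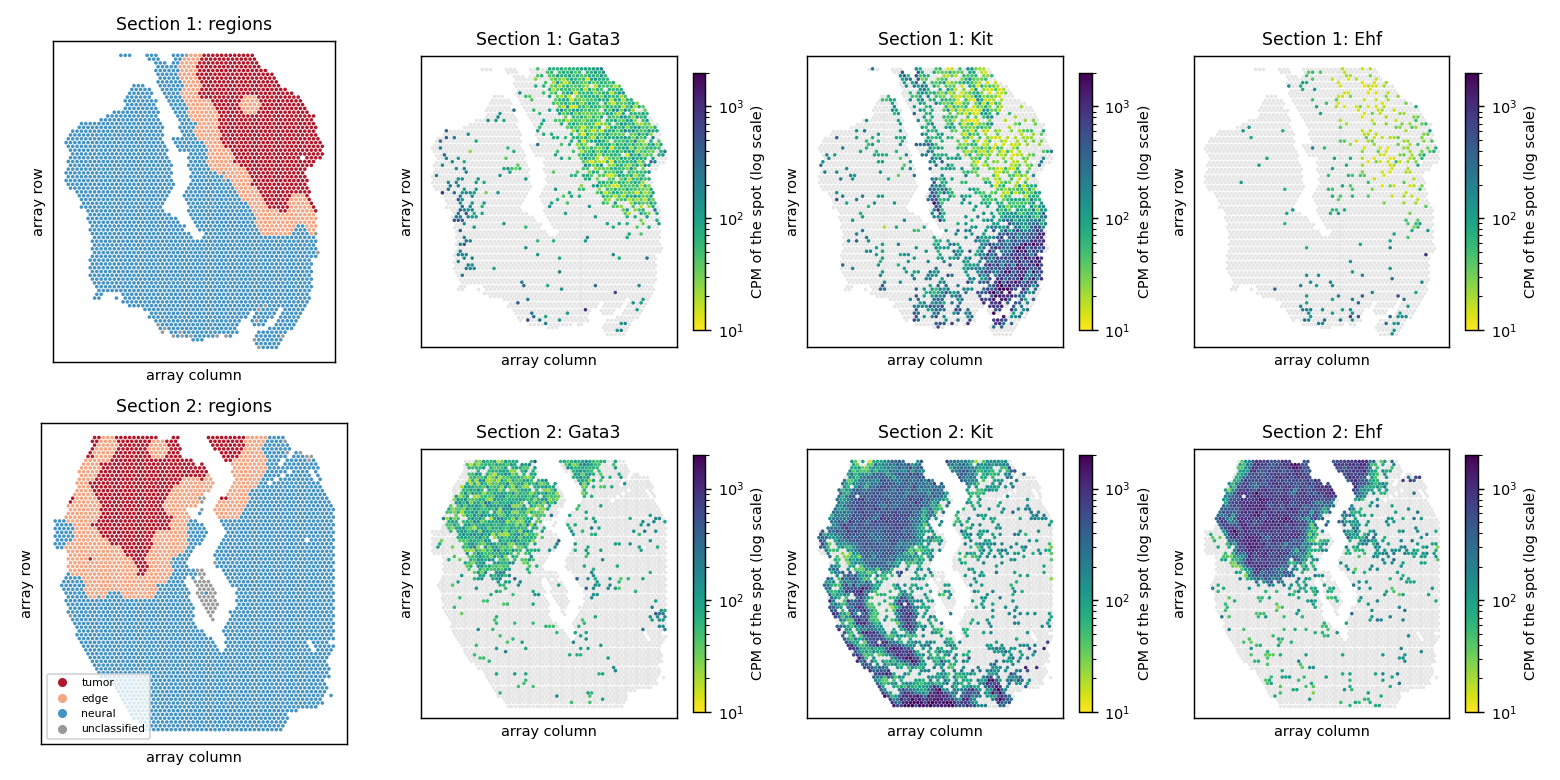
Position of the regions (left column) and CPM per spot of *Gata3*, *Kit* and *Ehf* in section 1 (top row) and section 2 (bottom row); each dot is 1 spot, colors follow a log scale of CPM and grey spots hold no UMI of the gene. *Gata3* lies over the mass of both sections, *Ehf* over the mass of section 2, and *Kit* over the mass of section 2 and in bands of the cerebellum of both.

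Of the 10 members, *Gata3* and *Esr1* were higher in the tumor region than in the neural region of both sections by edgeR's quasi-likelihood test with Benjamini-Hochberg adjustment over all genes. The other 8 did not pass. Across the 19204 genes tested, 13.1% were called higher and 16.4% lower in tumor, beside 2 of 10 members higher and 0 of 10 lower. The median log2 fold change was 1.454 over the members and -0.164 over all genes tested. The test compared UMIs summed by section and region, so it rests on 2 sections. In such sums, fewer cells of a type and less RNA per cell cannot be told apart.

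*Gata3* encodes the zinc-finger factor that sets luminal identity and keeps luminal cells differentiated, and it also directs T helper 2 cells and type 2 innate lymphoid cells. Its level in section 1 was 57.06 CPM in tumor, 24.77 in edge and 9.013 in neural spots. In section 2 it was 85.33, 47.92 and 6.131 CPM. The order of the regions was the same in both sections, and the lowest tumor value lay above the highest edge value. The log2 fold change of tumor against neural was 3.172 (SE 0.454, adjusted p = 0.0138). Within the sections it was 2.597 (95% counting interval 2.453 to 2.878) and 3.694 (3.581 to 4.024). Over the alternative analyses with a test, the adjusted p ranged from 1.29e-10 to 0.0164. Across single tumor spots the median was 48.64 CPM in section 1, with quartiles of 28.55 and 72.33, and 65.15 CPM in section 2, with quartiles of 37.05 and 94.84. At least 3 in 4 tumor spots of each section thus held *Gata3* UMIs.

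*Esr1* encodes estrogen receptor alpha, the ligand-bound receptor of hormone-sensing luminal cells. It stood at 34.82, 12.21 and 7.814 CPM in tumor, edge and neural spots of section 1, and at 20.71, 10.55 and 5.675 CPM in section 2. Again tumor was above edge and edge above neural in each section. The log2 fold change of tumor against neural was 2.018 (SE 0.28, adjusted p = 0.0122), with 2.087 in section 1 and 1.78 in section 2. The adjusted p stayed between 5.57e-10 and 0.0199 over the alternatives with a test. *Esr1* was the one member with a lower level in the tumor region of section 2 than of section 1, by a log2 ratio of -0.736 (95% counting interval -0.915 to -0.587).

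Promoter sequences of both genes are shown because they were the members called in the tumor region, and that of *Kit* because it was the member with the clearest pattern in the cerebellum. Each is the 250 bases before an annotated start, 5′ to 3′, from the RefSeq table for GRCm38.p6, with matches to the TFAP2 motif GCCNNNGGC and the ETS motif AGGAAG on either strand in capitals. The *Gata3* window (chr2:9878601-9878850, minus strand) lies inside the annotated span of the gene, at an internal start, and holds 3 TFAP2 matches. The *Esr1* window (chr10:4611739-4611988, plus strand) and the *Kit* window (chr5:75574737-75574986, plus strand) are the most upstream of 2 promoters listed for each gene, and each holds 1 TFAP2 and 1 ETS match.
Gata3: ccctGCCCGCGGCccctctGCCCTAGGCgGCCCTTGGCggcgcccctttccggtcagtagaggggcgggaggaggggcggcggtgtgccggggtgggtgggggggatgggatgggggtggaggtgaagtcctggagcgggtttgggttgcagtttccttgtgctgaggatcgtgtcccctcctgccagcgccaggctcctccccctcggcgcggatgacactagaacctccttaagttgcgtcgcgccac
Esr1: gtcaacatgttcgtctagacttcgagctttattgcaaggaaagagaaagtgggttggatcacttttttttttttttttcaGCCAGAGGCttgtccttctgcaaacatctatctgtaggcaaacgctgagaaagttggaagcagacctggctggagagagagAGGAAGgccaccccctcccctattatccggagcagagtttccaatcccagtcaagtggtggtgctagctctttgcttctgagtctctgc
Kit: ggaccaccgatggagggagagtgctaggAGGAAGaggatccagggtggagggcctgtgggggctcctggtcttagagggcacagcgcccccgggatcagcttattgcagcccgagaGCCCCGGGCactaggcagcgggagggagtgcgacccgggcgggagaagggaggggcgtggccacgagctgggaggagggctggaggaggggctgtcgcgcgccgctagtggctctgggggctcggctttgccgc
Among all 32851 promoter windows of 300 bases in that table, 16.6% held the TFAP2 motif and 35.4% the ETS motif. The table listed 9 promoters for 6 members, and 4 of these 9 held the TFAP2 motif and 4 the ETS motif. The 2 *Kit* windows overlap and hold the same matches, so each of those is counted 2 times, and the TFAP2 motif was found in 3 members and the ETS motif in 3. The GATA motif AGATAA, present in 11.2% of all windows, and the estrogen response half-site AGGTCA, present in 16.3%, had no match in the 9. The FOXA motif TGTTTAC (3.65% of all windows) and the SOX motif ACAATG (12.6%) had a match in 1 each. These are matches of letters and say nothing of binding. Promoters of *Ehf*, *Sox9*, *Trp63* and *Tfap2c* are not shown.

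*Gata3* and *Esr1* were both present in the section 1 mass, where the 8 epithelial genes were low, between 0.967 and 24.4 CPM in tumor spots. Fibroblast, T cell, plasma cell and macrophage genes also summed higher in its tumor spots than in the neural spots of that section. The 5 plasma cell genes summed to 1198 CPM in tumor and 77.16 CPM in neural spots of section 1, and to 128.4 and 88.74 CPM in section 2, and 1 of them, *Xbp1*, passed the test. In the tumor region of section 1 all 8 T cell markers lay between 22.7 and 58.4 CPM, and between 2.97 and 5.19 CPM in its neural region. In section 2 their range was 0.9 to 4.85 CPM in tumor and 1.43 to 3.59 CPM in neural spots, and 1 of the 8, *Il7r*, passed the test across sections (2.167, adjusted p = 0.0314), while *Gata3* was at 85.33 CPM in that tumor region. Of the 6 markers of type 2 lymphoid and T helper 2 cells, *Il1rl1* was at 62.93 CPM in tumor spots of section 1 and 0.9503 CPM in those of section 2. *Areg*, which is also on the list of hormone-sensing genes, was at 7.063 and 84.93 CPM there. The cytokine genes *Il4*, *Il5* and *Il13* were between 0.4 and 1.85 CPM in the tumor region of either section. The 8 fibroblast markers ranged from 184 to 24000 CPM in the tumor region of section 1 and from 6.7 to 258 CPM in that of section 2. Of these, 3 passed the test across sections as higher, beside 13.1% of all genes. They were *Postn*, *Col3a1* and *Col1a1*, with log2 fold changes of 6.656, 5.3 and 5.2. Across the 867 mass spots of section 1, the correlation with the fibroblast list was 0.36 for *Gata3* and 0.302 for *Esr1*, and with the epithelial list 0.016 and 0.062. Across the 970 mass spots of section 2, *Gata3* had a correlation of 0.464 with the epithelial list and of -0.018 with the fibroblast list. The part of these cells in the levels of *Gata3* and *Esr1* was not tested.

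The remaining hormone-sensing regulators did not pass the test. *Foxa1*, the pioneer factor that opens chromatin for the estrogen receptor, was at 3.253, 2.21 and 2.619 CPM in tumor, edge and neural spots of section 1. In section 2 it was at 39.01, 17.04 and 1.989 CPM. Section 2 therefore had a level falling away from the mass, and section 1 had none that counting error could separate, since the tumor to neural log2 ratio was 0.267 (95% interval -0.156 to 0.794). The fitted log2 fold change was 2.058 (SE 1.164, adjusted p = 0.231). *Pgr*, the progesterone receptor and a classic target of the estrogen receptor, was at 2.169, 5.117 and 9.457 CPM in section 1 and at 21.41, 12 and 9.849 CPM in section 2. The sections ran in opposite directions for *Pgr*, with within-section log2 ratios of -1.899 and 1.082 and a fitted value of -0.388 (SE 0.882, adjusted p = 0.743). *Esr1* and *Pgr* thus did not share an order of the regions in section 1, where *Pgr* in tumor spots was near the background of the panel described next.

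*Tfap2c*, which encodes AP-2 gamma and is used in luminal and placental epithelium, was at 2.227, 4.303 and 2.708 CPM in section 1. In section 2 it was at 13.6, 9.561 and 1.728 CPM. The log2 fold change of tumor against neural was 1.349 (SE 0.88, adjusted p = 0.284). Its level in section 1 was low enough to be set against genes that neither tissue should use. A set of 12 genes of liver, testis, pancreas and other organs, chosen after levels had been seen, lay between 0.528 and 3.52 CPM in the tumor region of section 1 and between 0.45 and 1.9 CPM in that of section 2. In all, 5 members were at or under the highest of them in section 1 tumor spots, *Elf5*, *Foxa1*, *Pgr*, *Tfap2c* and *Trp63*, and no member was in section 2 tumor spots. In neural spots the same 12 genes lay between 1.02 and 6.7 CPM in section 1, where *Elf5*, *Ehf*, *Foxa1*, *Tfap2c* and *Trp63* were at or under the highest of them, and between 0.848 and 3.23 CPM in section 2, where *Elf5*, *Foxa1* and *Tfap2c* were. At such levels a signal cannot be separated from the background of the probe panel.

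*Ehf* and *Kit* had the highest ratios between the tumor regions of the sections, and *Elf5* 1 of the lowest. *Ehf* encodes an ETS factor of epithelial cells, and its neighbor *Elf5* encodes the ETS factor that drives the alveolar fate. The genes lie 108.8 kb apart on chromosome 2 (GRCm38.p6), *Ehf* at chr2:103263431-103303275 and *Elf5* at chr2:103412098-103450989, with 2 annotated genes between them. *Ehf* was at 5.393, 4.768 and 4.839 CPM in tumor, edge and neural spots of section 1 and at 933.4, 450.4 and 14.97 CPM in section 2. *Elf5* was at 1.465, 1.977 and 2.797 CPM in section 1 and at 2.601, 1.854 and 1.663 CPM in section 2. *Ehf* was thus high in the mass of section 2 alone, while *Elf5* stayed near the background of the panel in both sections. The fitted log2 fold change of *Ehf* was 2.389 (SE 1.746, adjusted p = 0.33), with within-section log2 ratios of 0.142 in section 1 and 5.916 in section 2. That of *Elf5* was -0.15 (SE 0.424, adjusted p = 0.792), and its sign turned under other scaling factors. In the neural spots of section 2, where *Ehf* was at 14.97 CPM, the epithelial list summed to 197 CPM, against 23.66 CPM in those of section 1. Whether tumor RNA or tumor cells account for the *Ehf* there was not tested.

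*Kit* encodes the receptor tyrosine kinase for stem cell factor and marks luminal progenitors, mast cells and, in the cerebellum, inhibitory interneurons of the molecular layer. Its levels were 26.38, 57.92 and 80.71 CPM in tumor, edge and neural spots of section 1 and 500.3, 212.8 and 130.8 CPM in section 2. The tumor region was the lowest of the 3 in section 1 and the highest in section 2. The within-section log2 ratios of tumor to neural were -1.595 (95% interval -1.73 to -1.497) and 1.931 (1.882 to 1.988), and the fit gave 0.299 (SE 0.964, adjusted p = 0.819). The 8 luminal progenitor genes summed to 196.4, 926.6 and 276.5 CPM in section 1 and to 13630, 6584 and 910.4 CPM in section 2. *Wfdc18* alone gave 10780 CPM of the tumor sum of section 2, and *Lcn2* 799.5 CPM of the edge sum of section 1. The 1 gene of the list that passed the test, *Cd14*, was at 78.81 CPM in tumor and 13.19 CPM in neural spots of section 1, where *Kit* was lowest in tumor. The 8 macrophage markers summed to 5707 CPM in tumor and 896.6 CPM in neural spots of section 1, and to 1083 and 1189 CPM in section 2. Which cells held the *Cd14* RNA was not tested. The 7 mast cell markers summed to between 10.5 and 14.54 CPM in every region of both sections, with *Cma1* at 0 in the tumor region of section 2 and none of the 6 tested genes called. The ligand gene *Kitl* was at 18.76, 31.05 and 20.51 CPM in section 1 and at 49.87, 45.08 and 34.6 CPM in section 2, with a log2 fold change of 0.22 (adjusted p = 0.57).

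*Sox9* and *Trp63* represent stem-like and basal cells. *Sox9*, used by luminal progenitors and stem cells of the gland and by astrocytes in brain, was at 96.04, 91.53 and 74.28 CPM in section 1 and at 914.6, 485.1 and 125.5 CPM in section 2. Its log2 fold change of tumor against neural was 1.559 (SE 0.679, adjusted p = 0.15), with 0.369 and 2.86 within the sections. *Trp63*, the master gene of basal epithelium, was at 3.048, 3.256 and 6.038 CPM in section 1 and at 35.51, 29.26 and 5.283 CPM in section 2. The log2 ratios of *Trp63* were -0.882 and 2.638, and the fitted value was 0.594 (SE 1.102, adjusted p = 0.687). In section 2 both genes stood higher in tumor than in neural spots beyond counting error. In section 1 *Sox9* did too with TMM scaling, whose factors were 0.9239 for tumor and 1.174 for neural spots. Without it, *Sox9* of section 1 was at 88.73 CPM in tumor spots, 156.4 CPM at 6 steps outside the mass and 74.19 CPM at 10 or more. The small rise of *Sox9* in section 1 thus depends on the scaling, and no direction is read from it. In section 1 *Trp63* lay within the range of the 12 genes of other tissues in both regions, and those genes summed to 22.1 CPM in tumor and 34.72 CPM in neural spots, so no direction is read from it there. Beside 13.1% of all genes, 3 of the 8 basal genes passed the test as higher in tumor, *Krt17*, *Snai2* and *Acta2*. *Krt17*, the keratin among them, was at 0.0586 CPM in the tumor region of section 1 and at 777.3 CPM in that of section 2, whereas *Snai2* and *Acta2*, which fibroblasts and smooth muscle also use, were high in both.

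**Figure D2:**
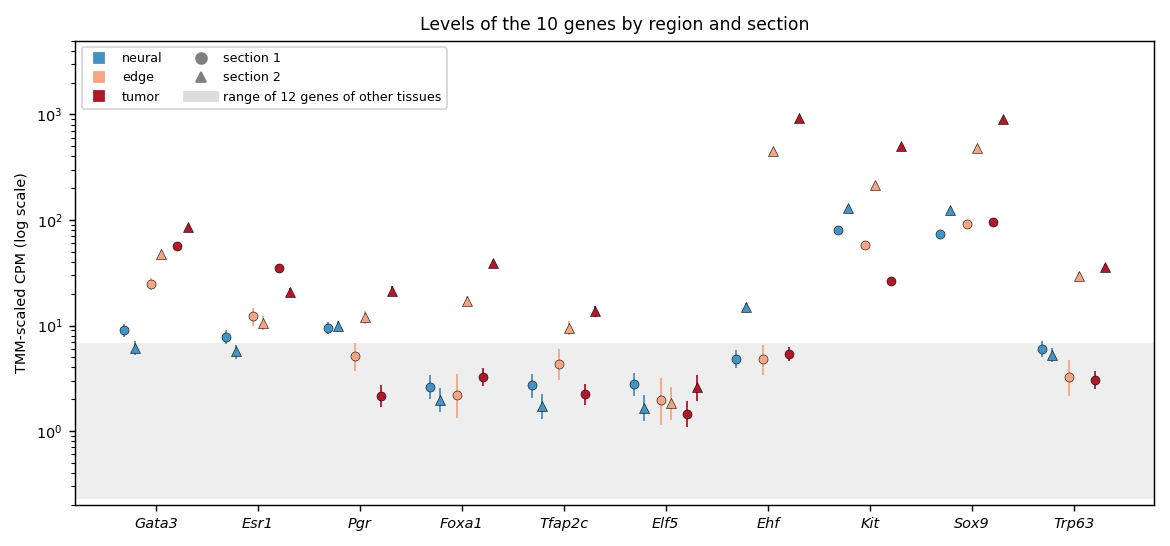
Level of each member in tumor, edge and neural spots, in CPM with TMM scaling on a log axis, for section 1 and section 2; bars are 95% exact Poisson intervals, which cover counting error only, and the grey band spans the 12 genes of other tissues over all libraries (0.232 to 6.7 CPM). *Gata3* and *Esr1* step down from tumor to edge to neural in both sections. *Sox9* does so too, but in section 1 its small step depends on the TMM scaling. The others do so in section 2 only.

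Set directly against each other, the tumor regions of the sections differed in 7 of the 10 members by at least 2-fold, all higher in section 2. Over all genes tested, 12.2% were at least 2-fold higher in section 2 and 13.2% at least 2-fold higher in section 1, and no member was among the latter. The log2 ratios were 7.308 for *Ehf*, 4.22 for *Kit*, 3.396 for *Foxa1*, 3.343 for *Trp63*, 3.245 for *Sox9*, 3.037 for *Pgr* and 2.371 for *Tfap2c*. Their counting intervals all lay above 1, the lowest being that of *Tfap2c* at 2.239 to 2.997. The intervals come from the counts alone, while the ratios had 0.5 CPM added, which makes those of low genes smaller. In section 1 *Foxa1*, *Trp63*, *Pgr* and *Tfap2c* were at or under the highest of the genes of other tissues (3.52 CPM), so part of their counts there may be background and their ratios may understate the difference. *Elf5*, also within that range in section 1, at 0.658, *Gata3* at 0.576 and *Esr1* at -0.736 were under 2-fold. The median was 3.141 over the members and -0.093 over all genes. With 1 section of each title there is no replicate check of this difference and no test. Section, mouse, organoid title and the share of epithelial cells cannot be told apart.

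The edge held intermediate levels in most cases. It pools spots from both sides of the border, so such a level is in part set by that mixture. In section 1, without TMM scaling, *Gata3* was at 35.4 CPM in edge spots on the mass side and 11.52 CPM on the neural side. In the comparison of edge with neural spots no member passed the test, against 4.8% of all genes called higher and 5.52% called lower. At an unadjusted p under 0.05 there were 2 members, *Gata3* and *Esr1*, beside 5788 of the 19204 genes tested. DESeq2 called 1 member, beside 4462 genes. *Gata3* came nearest, with a log2 fold change of 2.184 (SE 0.443, adjusted p = 0.0549), and it was called under 4 of the alternatives, with 1 of them DESeq2. In the comparison of tumor with edge the test called 0 members and 0% of all genes in either direction, although 2419 genes had an unadjusted p under 0.05 and DESeq2 called 1141. *Esr1*, the 1 member with an unadjusted p under 0.05, had a log2 fold change of 1.242 there (adjusted p = 0.175) and *Gata3* of 0.987 (adjusted p = 0.449). DESeq2 called *Esr1* in that comparison.

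Step by step from the border, the members followed the mass in different ways. Values by step, by set and by spot are CPM of the UMIs there, without TMM scaling. In section 1, *Gata3* was at 61.31 CPM in spots 10 or more steps inside, at 29.35 CPM in the outermost mass spots and at 12.78 CPM in the first neural-rich spots. *Esr1* ran from 41.65 to 14.46 and 7.399 CPM over the same steps. *Kit* ran the other way, from 17.95 to 69.75 and 68.61 CPM, and reached 202.8 CPM at 7 steps outside. It was at 75.64 CPM in the 1861 spots at 10 or more steps outside. *Sox9* of section 1 was at 109.7 CPM 10 or more steps inside, 101.6 CPM in the outermost mass spots and 121.7 CPM in the first neural-rich spots. It was at 156.4 CPM at 6 steps outside and 74.19 CPM at 10 or more. In section 2, *Ehf* was at 895.4 CPM 10 or more steps inside, 442.3 CPM at the inner border, 154.9 CPM at the first step outside and 11.15 CPM at 10 or more steps outside. *Kit* ran from 508.2 to 196.7 and 125.5 CPM, and *Foxa1* from 45.92 to 16.33 and 6.956 CPM. *Trp63* had its highest value at 2 steps inside, at 39.62 CPM (95% interval 34.9 to 44.79). It was at 22.96 CPM (14.39 to 34.76) from 22 UMIs at 10 or more steps inside. The interval at 3 steps inside, 27.85 to 38.49, overlapped that at 2 steps, so the place of a peak is not settled. The log2 ratio of tumor to edge of *Trp63* in section 2 was 0.275 (95% interval 0.113 to 0.447). It was 1.231 for *Kit*, 1.172 for *Foxa1*, 1.051 for *Ehf* and 0.914 for *Sox9*. These profiles come from 1 section each and carry no test.

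**Figure D3:**
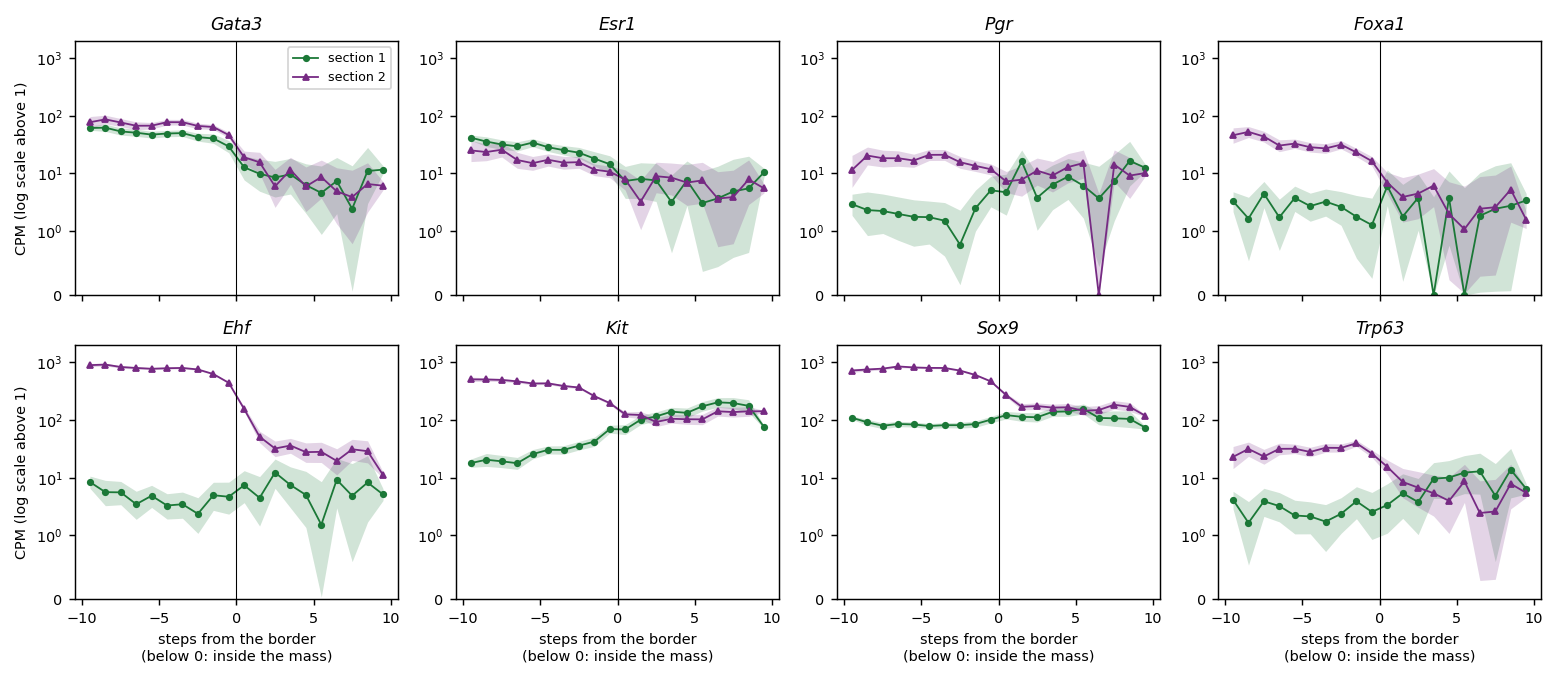
CPM of 8 members (symmetric log axis) by steps from the border of the mass, negative inside and positive outside, for section 1 and section 2. Points pool all spots of a step, with 10 or more steps pooled, and shaded bands are 95% exact Poisson intervals. In section 2 most members fall across the border. *Kit* in section 1 climbs from the mass into the nearby cerebellum and is lower again at 10 or more steps outside.

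Section 2 held a second, smaller connected mass, which allowed a look at whether the levels were shared within one brain. Its 45 tumor spots had *Ehf* at 791.6 CPM and *Sox9* at 804.7 CPM, against 801.0 and 782.7 CPM in the 511 tumor spots of the larger mass. *Gata3* was at 81.54 against 72.55 CPM and *Trp63* at 37.63 against 29.92 CPM. For *Kit* and *Tfap2c* the counting intervals of the masses did not overlap. They cover counting error only, and the share of all genes that differed as much was not computed. The masses were not matched for steps from the border. In section 2 *Kit* was at 508.2 CPM in mass spots 10 or more steps inside and at 366.7 CPM at 3 steps inside. *Kit* was at 241.5 CPM (218.0 to 266.9) in the smaller and 442.7 CPM (433.9 to 451.7) in the larger mass. *Tfap2c* ran the other way, at 19.44 CPM (13.21 to 27.6) from 31 UMIs in the smaller and 11.09 CPM (9.737 to 12.59) in the larger.

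Across single spots of the mass in section 2, 5 pairs of members stood out. Pearson correlations over the 970 mass spots were 0.783 for *Ehf* and *Sox9*, 0.624 for *Ehf* and *Kit*, 0.535 for *Kit* and *Sox9*, 0.481 for *Ehf* and *Gata3* and 0.391 for *Gata3* and *Sox9*. The median over all 45 pairs was 0.1. In section 1, over 867 spots, the 45 pairs ran from -0.088 to 0.118. The spots share a section, and depth moved with the levels, with correlations to the log2 UMIs of a spot of 0.564 for *Ehf*, 0.52 for *Sox9*, 0.434 for *Kit* and 0.357 for *Gata3* in section 2. The 970 spots also include 414 edge spots on the mass side, where *Ehf*, *Sox9*, *Kit* and *Gata3* were lower than in tumor spots. A shared fall toward the border was not separated from these correlations. The values are descriptions, as counts of the low members are also sparse.

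**Figure D4:**
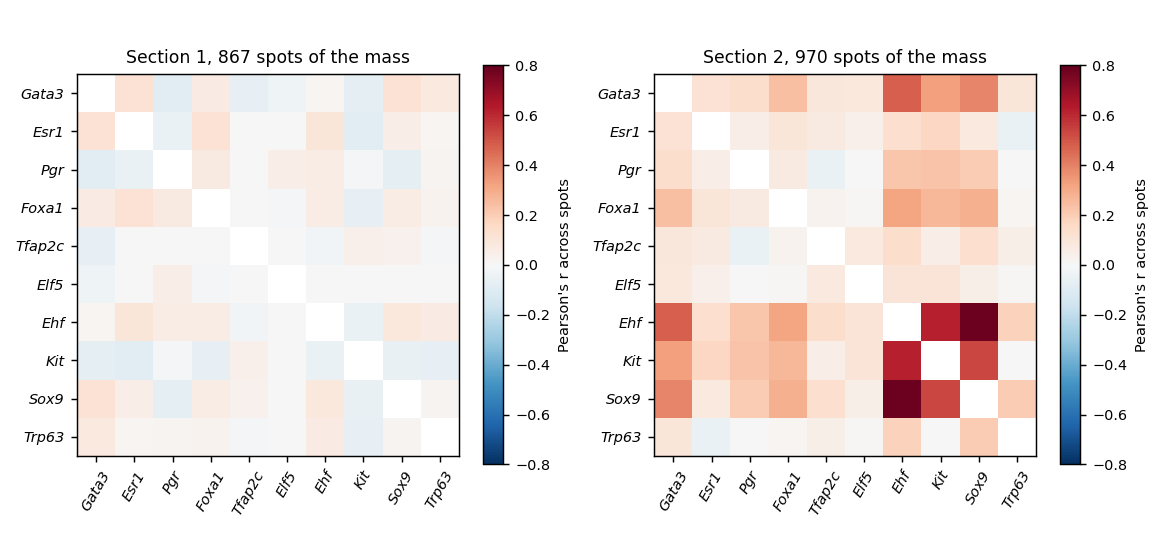
Pearson correlation of log2(CPM/100 + 1) for each pair of members across the mass spots of section 1 (867 spots, left) and section 2 (970 spots, right). A block of *Ehf*, *Sox9*, *Kit* and *Gata3* is visible in section 2, and no pair exceeds 0.118 in section 1.

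The genes whose spot pattern was most like that of a member also differed between the sections. Their correlations used the same mass spots, with the edge spots on the mass side among them. In section 2, *Ehf* was closest to *Wfdc18* (r = 0.877), a milk protein gene, then *Nfib* and *Sorbs2*, and *Sox9* was closest to *Gja1* (0.806), *Wfdc18* and *Ehf*. *Kit* was closest to *Sorbs2* (0.703), *Nedd9* and *Wfdc18*, *Gata3* to *Nfib* (0.481), *Ehf* and *Wfdc18*, and *Foxa1* to *Tlr3* (0.362), *Slc12a2* and *Ntn1*. The closest genes of *Pgr*, *Esr1*, *Tfap2c* and *Elf5* had correlations of 0.297, 0.24, 0.213 and 0.175. *Trp63* was closest to *Col17a1* (0.312), *Lgals7* and *Krt5*, the last a basal keratin. Correlations with a list used the mean over its genes of the log2 level per spot, not their summed CPM. *Ehf* had a correlation of 0.836 and *Sox9* of 0.831 to the epithelial list in section 2. There the correlation of *Kit* to the luminal progenitor list was 0.634, and that of *Trp63* to the basal list was 0.328. In section 1, *Gata3* was closest to *Cdh11* (0.349), *Col12a1* and *Pcolce*, and *Esr1* to *Dcn* (0.408), *Tsc22d3* and *Igfbp5*, among them genes of collagen matrix and stroma. *Kit* was closest there to *Fam107a* (0.541), *Pvalb* and *Gria1*, which are genes of brain cells, and *Sox9* to *Nfix* (0.278), *Prss23* and *Vim*. The remaining 6 members had a mean under 0.25 UMI per mass spot there, and their closest genes, at correlations of 0.153 to 0.345, are not named.

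Within the neural region, *Kit* had the clearest pattern. Neural spots were assigned to granule layer, molecular and Purkinje layer, white matter or brainstem by 4 lists that hold no member, and each layer was tested against the mean of the other 3. *Kit* was at 374.2 CPM in the molecular and Purkinje layer of section 1, against 89.48 in the granule layer, 38.33 in white matter and 21.32 in brainstem. In section 2 these were 451.6, 71.21, 45.73 and 37.27 CPM. The order of the layers was the same in both sections. *Kit* rose in the molecular and Purkinje layer by a log2 fold change of 3.155 (SE 0.162, adjusted p = 9.17e-09), as the 1 member of 10 called there, against 4.57% of all genes called higher. *Kit* was lower in white matter, at -1.238 (SE 0.198, adjusted p = 0.001), where 3.18% of all genes were called lower, and in brainstem, at -1.949 (SE 0.205, adjusted p = 1.22e-05). Both lower calls are against a mean that includes the molecular and Purkinje layer, so they are not independent of its high level. White matter itself stood above brainstem in both sections. These 3 calls held under every alternative with a test.

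Other members showed smaller differences between layers. *Tfap2c* was at 5.524 and 3.612 CPM in the granule layer of sections 1 and 2, and at 0.907 to 5.141 CPM in the other layers. It was the 1 member called higher in the granule layer, by 1.373 (SE 0.377, adjusted p = 0.0114), where 23.3% of all genes were called higher. In brainstem, *Esr1* (0.705), *Pgr* (0.608) and *Gata3* (0.663) were called higher and *Foxa1* (-1.063), *Tfap2c* (-1.309) and *Kit* lower, which is 3 of 10 each way beside 19.6% and 16.2% of all genes. *Pgr* reached 14.67 and 13.69 CPM in brainstem and *Gata3* 14.37 and 8.065 CPM. In section 2 *Gata3* was higher in white matter, at 9.582 CPM, than in brainstem. Apart from that of *Kit*, the brainstem calls had adjusted p values between 0.0344 and 0.0468 and each was lost under several alternatives, DESeq2 among them. DESeq2 also did not call *Tfap2c* in the granule layer. *Foxa1* and *Tfap2c* were within or near the range of the genes of other tissues in these layers.

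**Figure D5:**
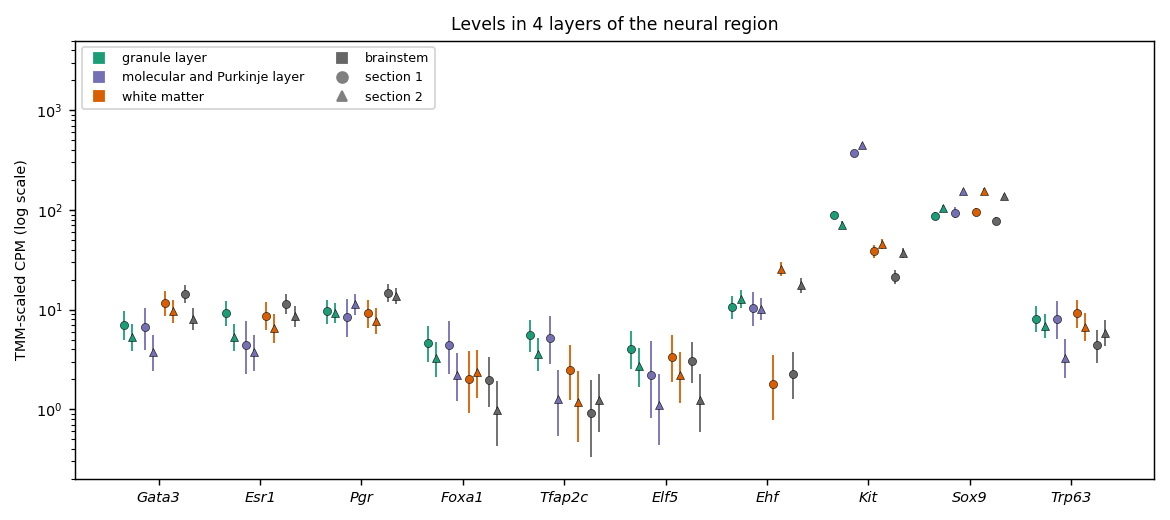
Level of each member in the 4 layers of the neural region, in CPM with TMM scaling on a log axis, for section 1 and section 2, with 95% exact Poisson intervals. *Kit* is highest in the molecular and Purkinje layer of both sections, while *Sox9* lies between 78.03 and 156.0 CPM in every layer.

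Further regulators of epithelium and mammary gland were read from a list of 24 genes. Of these, 7 passed the test of tumor against neural as higher, 2 as lower and 15 did not pass, with a median log2 fold change of 1.492. Over all genes tested, 13.1% were called higher and 16.4% lower. *Klf5*, a factor of basal and luminal epithelium, was at 21.63 CPM in section 1 and 170.2 CPM in section 2 tumor spots, and its log2 fold change was 3.646 (adjusted p = 0.0271). *Runx1*, a luminal and blood factor, was at 59.26 and 121.0 CPM there and rose by 3.367 (adjusted p = 0.00539). *Sox10*, used by oligodendrocytes as well as by mammary progenitors, was at 2.491 and 1.701 CPM in tumor and at 31.17 and 34.67 CPM in neural spots, with a log2 fold change of -3.983 (adjusted p = 0.00584). Among 14 ligands, cofactors and close relatives of the members, 2 were called higher and 1 lower, beside the same 13.1% and 16.4% of all genes. *Elf4*, an ETS relative of *Ehf* and *Elf5* used in lymphocytes, was at 58.35 and 36.06 CPM in tumor spots and at 3.419 and 4.957 CPM in neural spots. *Ncoa3*, a coactivator of the estrogen receptor, had a log2 fold change of 1.145 (adjusted p = 0.0285), and *Sox8*, a relative of *Sox9* in glia, one of -3.71 (adjusted p = 0.00541). Of 8 further hormone-sensing genes, *Xbp1*, which is also on the plasma cell list, rose by 0.976 (adjusted p = 0.0465) on the log2 scale. *Cited1* fell by 1.851 (adjusted p = 0.0154), and 6 did not pass.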

How the data were processed

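The 2 formalin-fixed, paraffin-embedded sections were profiled with Visium CytAssist and a mouse probe panel. The authors deposited raw UMI counts per gene and spot, made with Space Ranger 2.1.1 on mm10 per the submitters' processing notes. Since the panel's probes per gene are not given in the sources used here, levels were not ranked between genes. Spots with at least 500 UMIs and 10 genes were kept. Counts were summed by section and region (6 libraries) or layer (8 libraries) and fitted with edgeR 4.0.16 (quasi-likelihood, TMM, filterByExpr, section as a block), with p adjusted over all genes by Benjamini-Hochberg and called under 0.05. CPM intervals are 95% exact Poisson, and log2 ratios between libraries (0.5 CPM added) have conditional binomial intervals. Both cover counting error only. The intervals of the log2 ratios were taken from counts without the added 0.5 CPM, so the ratio of a low gene can lie off their middle. Spots were not treated as replicates. Correlations used log2(CPM/100 + 1). Alternatives covered the region rule, scaling, filter, DESeq2 1.42.0 and the block. In data simulated for tumor against neural, 96% of genes with an absolute log2 fold change of 2 were recovered and 22% of those with 1. The simulated counts had a dispersion of 0.05 and no section effect, against a fitted common dispersion of 0.102. These shares may therefore overstate the recovery in the real data. The members and lists were chosen with earlier results of these data known. All 10 members were named. Of each list set beside a member, up to 3 genes called with the largest change were named, as were, for most members, the 3 genes most like them among genes with a mean of at least 0.5 UMI per spot. The rule also covered lists of brain and vessel cells, which are not described. Other list genes were named after their values were seen.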

Additional observations from a re-analysis of the deposited data

Results flagged for a closer look

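For *Elf5*, *Kit*, *Pgr*, *Trp63* and *Tfap2c* the tumor to neural log2 ratio had opposite signs in the 2 sections. The difference between the sections was not tested. Of all genes tested, 77.9% had the same sign in both sections. The ratio was -0.746 in section 1 and 0.519 in section 2 for *Elf5*, -1.595 and 1.931 for *Kit*, and -1.899 and 1.082 for *Pgr*. It was -0.882 and 2.638 for *Trp63*, and -0.234 (95% counting interval -0.787 to 0.228) and 2.662 for *Tfap2c*. In section 1, *Elf5*, *Trp63* and *Tfap2c* lay within the range of the 12 genes of other tissues in both regions. Those 12 genes themselves summed to 22.1 CPM in tumor and 34.72 CPM in neural spots. No direction is therefore read from the section 1 ratios of *Elf5*, *Trp63* and *Tfap2c*. *Pgr* was within that range in the tumor spots of section 1.

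Neural-poor spots in sets too small to count as tumor mass entered no comparison, 20 in section 1 and 54 in section 2. *Ehf* stood above its neural level in them, at 37.4 CPM from 3 UMIs in section 1 and at 28.95 CPM from 16 UMIs in section 2. *Sox9* was at 228.0 CPM from 126 UMIs in section 2.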

How the results depend on the processing

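The calls of *Gata3* and *Esr1* in tumor against neural held under every alternative with a test. DESeq2 called 4 members and 7215 genes there, adding *Foxa1* (2.183, adjusted p = 0.0478) and *Sox9* (1.734, adjusted p = 0.0256). Without the section block 3696 genes were called. Scaling moved the share of higher calls. For tumor against neural, 2514 genes were higher and 3148 lower with TMM, 4186 and 3029 with DESeq2, and 1814 and 5084 with library size only, where the median of all genes was -0.474 in place of -0.164. Of the calls by layer, higher ones made up 57.4% in the granule layer with TMM, 34.1% with DESeq2 and 81.8% with library size only, and 54.7%, 67.9% and 25.2% in brainstem. With TMM and library size only they made up 42.1% and 56.6% in the molecular and Purkinje layer and 68.6% and 44.0% in white matter.

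In edge against neural, 3035 genes were called with a neural-poor limit of 0.15, 923 with 0.40, 4462 with DESeq2 and 1161 without the block. Members called were 2 with the limit of 0.15, and 1 each with DESeq2, RLE factors (2048 genes) and no block. In tumor against edge, 437 genes were called with an edge of 1 step, 993 with the limit of 0.40, 1141 with DESeq2, 131 with library size only and 273 without the block. DESeq2 called 1 member there, *Esr1* (1.363, adjusted p = 0.000958).

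In the granule layer, 2 members and 7391 genes were called over 5 steps from the mass, 3 and 8570 with library size only, and 0 with DESeq2 or without the block, with 4915 and 2899 genes in the latter pair. In the molecular and Purkinje layer 2 were called over 5 steps away (2190 genes) and 2 with at least 1000 UMIs per spot (2036 genes), and 1062 genes without the block. White matter had 542 genes called without the block. In brainstem, 3 members were called over 5 steps away (6037 genes) and with library size only (7645), and 1 with DESeq2 (4805) or without the block (3052). With library size only the median of all genes was -0.387 in brainstem and 0.368 in the granule layer.

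Log2 fold changes that turned sign belonged to members near 0. For tumor against neural, *Elf5* was 0.022 with DESeq2 and 0.007 with RLE factors, and *Pgr* 0.283 without the block. For edge against neural, *Kit* was 0.003 with the largest set only and 0.356 without the block. For tumor against edge, *Elf5* was -0.096 with an edge of 3 steps, -0.169 with the limit of 0.15 and -0.126 with library size only, *Pgr* -0.005 with the largest set only and -0.101 with library size only, and *Trp63* -0.035 with library size only. *Tfap2c* was 0.121, 0.051 and 0.289 with an edge of 3 steps and limits of 0.15 and 0.40, and 0.114, 0.111 and 0.174 with DESeq2, RLE factors and no block. Leaving out either section leaves no residual degrees of freedom, so those values had no test. Shallow neural spots and 2 sections limit what low members can show.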
